A study of Mus musculus with 20 samples.

Results

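The 10 genes described here encode transcription factors that give sensory neurons of the dorsal root ganglion (DRG) their identity. They are Isl1, Pou4f1, Pou4f2, Pou4f3, Prdm12, Tlx3, Runx1, Runx3, Etv1 and Shox2, and they were found by Ensembl identifier among the 37620 genes of the deposited expression table. Their RNA was measured in Trpv1 neurons of the lumbar (L4-5) and sacral (L6-S1) DRG of mice, and the question was whether the factors differ between these spinal levels or between the sexes. The groups were lumbar male, lumbar female, sacral male and sacral female, with 5 libraries in each, and each of 10 donors gave 1 lumbar and 1 sacral library. All mice were 6 to 8 weeks old and homozygous for Trpv1tm2Bbm, a reporter allele that places β-galactosidase under the control of Trpv1, which lumbar and sacral DRG of both sexes share. Cells whose β-galactosidase cleaved the substrate DDAOG were sorted by flow cytometry for brightness, and the libraries therefore hold cells with an active Trpv1 locus and any cells that passed the gate with them. Each donor label carries 2 animal numbers, and whether cells of 2 animals were pooled is not stated. Values are log2 RPKM (reads on a gene, corrected for its exon length and for library size, on a log2 scale), and differences are lumbar minus sacral, so that a negative value is a higher level in sacral DRG.

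Sensory neurons arise from neural crest and take on their type in steps. Isl1, a LIM homeodomain factor, and Pou4f1 (Brn3a), a POU homeodomain factor, act in all somatosensory neurons as they leave the cell cycle. Prdm12 is needed for the nociceptor lineage, and Runx1 then steers nociceptors between peptidergic and nonpeptidergic fates, whereas Runx3 and Etv1 act in proprioceptors and Shox2 in touch neurons that carry TrkB. Tlx3 works with these in excitatory somatosensory neurons, and several of the factors stay on in the adult.

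Between 44042098 and 66672852 reads per library could be worked back from the deposited values, and all 10 factors had a value in all 20 libraries. The 6 neuronal markers (Rbfox3, Elavl4, Uchl1, Tubb3, Snap25 and Prph) had a mean level per library of 6.34 to 7.20 in lumbar and 7.15 to 7.54 in sacral DRG, and all 6 passed the test with more in sacral DRG (-0.22 to -0.71). Of 10 glial markers, 9 passed the test with more in lumbar DRG, and their summed level was 2039 to 4047 RPKM in lumbar and 1256 to 2119 RPKM in sacral libraries. No glial marker was at 0 in any library. All 5 vessel markers and 2 of 4 fibroblast markers passed with more in lumbar DRG. Of 9 immune markers, 4 were tested. Csf1r passed with more in lumbar DRG. S100a8 and Ngp passed with more in sacral DRG, over the libraries with a value, which were 7 lumbar and 6 sacral for S100a8 and 7 lumbar and 4 sacral for Ngp. Across libraries the summed level of the immune list was 2.45 to 14.8 RPKM in lumbar and 1.74 to 17.6 RPKM in sacral libraries. Because these are RNA levels of pooled cells, fewer cells of a type and less RNA per cell cannot be told apart.

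Runx1 and Runx3 are members of 1 gene family with roles in different types of sensory neuron, and both carry the same sequence beside a start site. The letters AACCACA, a common core of Runx binding sites, were searched on both strands in RefSeq promoter windows (build GRCm38.p6, 250 bases before to 50 after each start), together with their tandem. Of the 10 factors, 9 had a window in this table. The single core was in 5.27% of all 32851 windows and in 2 of the 12 windows of the factors, 1 of Runx1 and 1 of Runx3. The tandem was in 4 windows, which cover 3 places in the genome, beside the starts of Runx1, Runx3 and the third family member, Runx2. The stretches are shown because the family shares them, each from 5′ to 3′ on the strand of its gene, with the core in capitals.
Runx1: cataaacAACCACAgAACCACAagttggg
Runx2: cacaaacAACCACAgAACCACAagtgcgg
Runx3: gtccctcAACCACAgAACCACAaggccag
The Runx1 stretch is at chr16:92826026-92826054 (minus strand), and its tandem begins at base 28 of the transcript. The Runx2 stretch is at chr17:44814584-44814612 (minus strand), with the tandem beginning at base 23 of the transcript. The Runx3 stretch is at chr4:135120503-135120531 (plus strand), with the tandem beginning at position -135 relative to the start, and the fourth window, that of Gm16225, overlaps this place on the other strand. A match of letters is a description and not a measured site. The letters CCAAT were in 6 of the 12 windows of these factors (4 of the 9 factors) and in 37.4% of all windows. No window of a factor held ATTAAT, a core of POU4 sites. Neither TAATTA, a homeodomain core, nor CCGGAAGT, an ETS core, was found there.

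The factors differed widely in level, with Prdm12 and Runx1 highest and Shox2 and Runx3 lowest. Prdm12 (ENSMUSG00000079466, chromosome 2 of mm9, 31495557 to 31511315, plus strand) was highest at a mean of 6.41 ± 0.41 (SD, n = 20), and ranked 326 of 17138 genes with a value in every library. Runx1 (ENSMUSG00000022952, chromosome 16, 92601712 to 92826311, minus strand) followed at 4.82 ± 0.33 and Pou4f1 (ENSMUSG00000048349, chromosome 14, 104862737 to 104867216, minus strand) at 4.63 ± 0.45. Then came Etv1 (ENSMUSG00000004151, chromosome 12, 39505967 to 39594802, plus strand) at 3.68 ± 0.34, Isl1 (ENSMUSG00000042258, chromosome 13, 117088478 to 117099896, minus strand) at 3.33 ± 0.28, Pou4f3 (ENSMUSG00000024497, chromosome 18, 42554251 to 42555747, plus strand) at 2.72 ± 0.83 and Pou4f2 (ENSMUSG00000031688, chromosome 8, 80956908 to 80960551, minus strand) at 2.30 ± 0.44. Tlx3 (ENSMUSG00000040610, chromosome 11, 33100752 to 33103588, minus strand) was low at 0.73 ± 0.46. Shox2 (ENSMUSG00000027833, chromosome 3, 66775649 to 66785693, minus strand) at -2.47 ± 1.05 and Runx3 (ENSMUSG00000070691, chromosome 4, 134676567 to 134733905, plus strand) at -2.79 ± 1.34 were lowest, and Runx3 ranked 16596 of the 17138 genes.

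In this order some neighbours stood apart in every library and others did not. Prdm12 exceeded Runx1, Pou4f1 exceeded Etv1, Pou4f2 exceeded Tlx3 and Tlx3 exceeded Shox2 in 20 of 20 libraries. Runx1 exceeded Pou4f1 in 10 of 10 lumbar but in 6 of 10 sacral libraries, by 0.19 ± 0.20 on average (SD, n = 20). Isl1 exceeded Pou4f3 in all 10 lumbar but in 4 of 10 sacral libraries. Pou4f3 exceeded Pou4f2 in 3 of 10 lumbar and in 10 of 10 sacral libraries. Etv1 exceeded Isl1 in 17 of 20 libraries (0.35 ± 0.35), and Shox2 exceeded Runx3 in 9 of 20 libraries (0.33 ± 1.42). The SD here is the spread over libraries, and the order of neighbours was not tested.

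**Figure D1:**
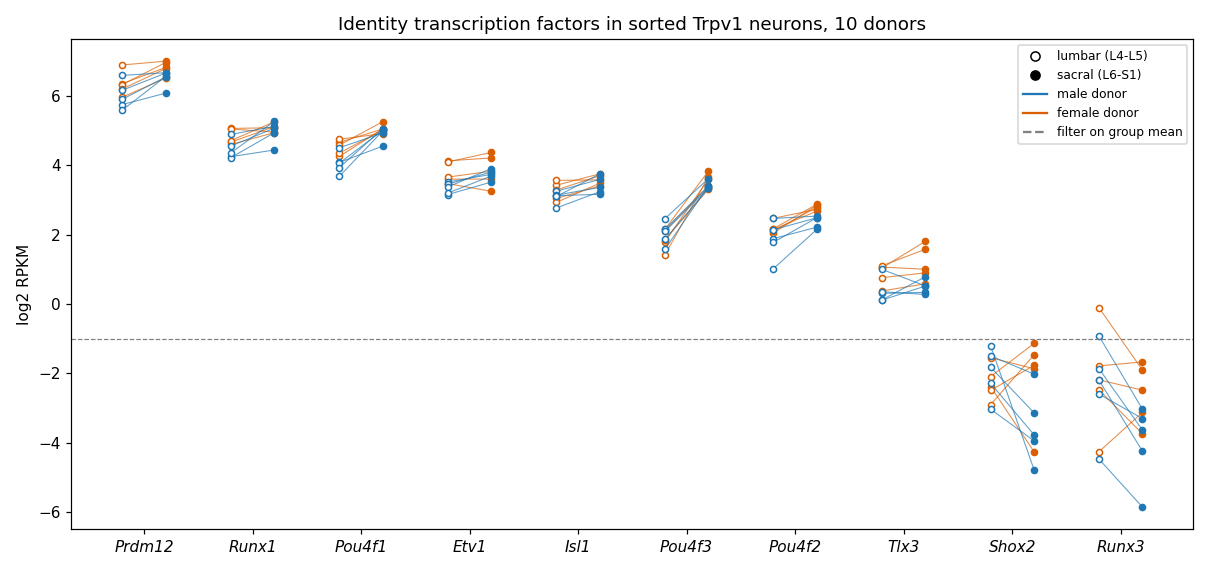
Log2 RPKM of the 10 factors (vertical axis) in order of their mean level, with open points for lumbar and filled points for sacral libraries, a line for each donor (blue male, orange female) and a dashed line at the filter of -1 on group means. Pou4f3 is the only factor whose sacral points all lie above its lumbar points, and Shox2 and Runx3 lie mostly below the filter. On this scale 8 factors have higher means in sacral DRG, whereas 5 of them (Isl1, Prdm12, Runx1, Etv1 and Tlx3) change sign when libraries are centred on neuronal markers.

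Between the levels, 6 of the 8 factors that passed the filter on low values were differentially expressed, all with more in sacral DRG, as were 45.6% of the 16304 genes tested (30.3% with more in sacral and 15.3% with more in lumbar DRG). The differences ran from -1.54 to -0.21 with a median of -0.43, beside a median of -0.11 over all genes tested. Pou4f3, Pou4f1, Pou4f2, Prdm12, Runx1 and Isl1 passed the test, and Etv1 and Tlx3 did not. The test was limma with the donor as a random block and Benjamini-Hochberg adjustment over all genes. It serves every adjusted p that follows unless another fit or test is named.

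Pou4f3 (Brn3c), a POU factor best known from inner ear hair cells and part of the sensory neuron repertoire, showed the largest difference of the 10. In male donors M1 to M5 its lumbar levels were 1.86, 2.15, 2.46, 2.09 and 1.58, and its sacral levels were 3.34, 3.40, 3.61, 3.34 and 3.39. In female donors F1 to F5 the lumbar levels were 2.15, 1.79, 2.11, 1.41 and 1.85, and the sacral levels were 3.83, 3.60, 3.39, 3.66 and 3.30. Every sacral library was above every lumbar library, which held for 1.34% of the 15318 genes tested with a value in every library. The reads behind these values were 228 to 569 per lumbar and 1220 to 1923 per sacral library. The mean difference was -1.54 (standard error 0.10, adjusted p = 4.8e-09), a level 2.90-fold higher in sacral DRG and the third lowest p of the 16304 genes. It was -1.39 in male and -1.69 in female donors, and the interaction with sex was -0.30 (standard error 0.21, adjusted p = 0.9996).

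Pou4f1, the POU factor of all somatosensory neurons, differed by less. Its lumbar levels were 4.50, 4.08, 4.06, 3.68 and 3.93 in donors M1 to M5 and 4.66, 4.75, 4.25, 4.34 and 4.58 in donors F1 to F5. Its sacral levels were 4.93, 4.55, 5.002, 4.98 and 5.05 in the male and 5.04, 4.91, 5.05, 5.02 and 5.25 in the female donors. The groups overlapped in single libraries, since the highest lumbar value (4.75) exceeded the lowest sacral value (4.55), but sacral DRG had more in each of the 10 donors, as 14.6% of the 15318 genes did. The difference was -0.70 (standard error 0.09, adjusted p = 7.4e-06), or 1.62-fold. Pou4f2 (Brn3b), known from retinal ganglion cells and also made by sensory neurons, had a lowest, median and highest level of 1.02, 2.12 and 2.47 in lumbar and 2.15, 2.61 and 2.87 in sacral DRG. It was higher in sacral DRG in 10 of 10 donors, by 1.47-fold (-0.56, standard error 0.12, adjusted p = 0.00069).

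Since these 3 genes have the same kind of product, their proportions were compared within each library, where library scaling cancels. Of their summed RPKM, Pou4f1 made up 70.5% ± 4.1 in lumbar and 64.6% ± 3.2 in sacral libraries (SD, n = 10 each). Pou4f2 made up 14.9% ± 2.6 and 12.3% ± 1.4, and Pou4f3 14.6% ± 4.6 and 23.1% ± 2.8. The ratio of Pou4f3 to Pou4f1 was 1.79-fold higher in sacral DRG (difference of log2 ratios -0.84 ± 0.56, SD, n = 10 donors) and was higher in 9 of 10 donors (exact sign-flip permutation test over donors, two-sided p = 0.0039, 0.0078 adjusted over 4 ratios). The ratio of Pou4f3 to Pou4f2 was 1.98-fold higher and was so in 10 of 10 donors (exact permutation p = 0.0020, the smallest the design allows, adjusted p = 0.0078). For the ratio of Pou4f2 to Pou4f1 the difference was 0.14 ± 0.36 (SD, n = 10 donors), which did not pass (exact permutation p = 0.26). Without donor F2 it was 0.23 (exact permutation p = 0.016). The shift of Pou4f3 against Pou4f1 was -0.53 ± 0.45 in male and -1.15 ± 0.51 in female donors (SD, n = 5 each), and a permutation of the sex labels gave an exact two-sided p of 0.095 after adjustment over the 4 ratios, which misses the threshold. The ratios were not among the planned tests, and the adjustment covers these 4 rather than all pairs of factors.

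**Figure D2:**
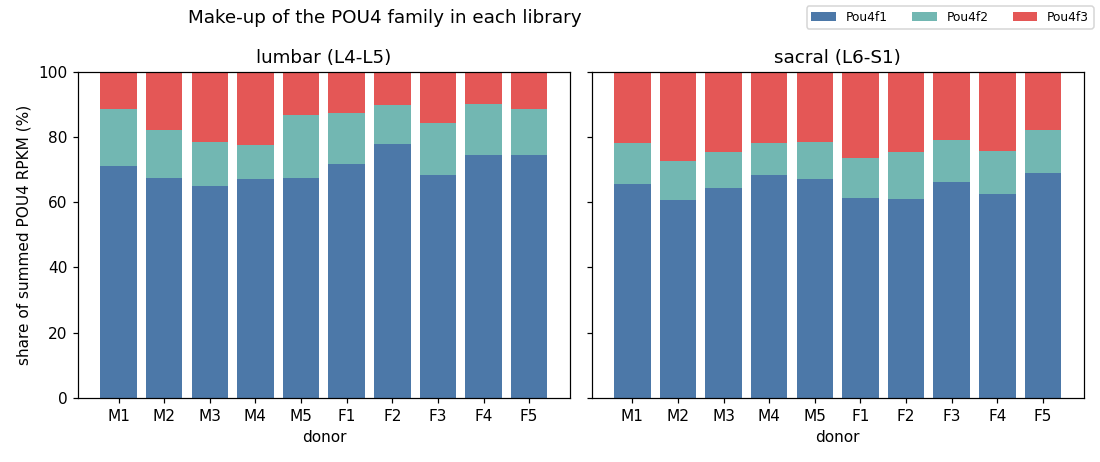
Share of Pou4f1, Pou4f2 and Pou4f3 in their summed RPKM (vertical axis, percent, from 0) in each lumbar and each sacral library, one stacked bar per donor. The share of Pou4f3 was 9.77% to 22.3% in lumbar and 17.8% to 27.4% in sacral libraries.

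Prdm12, a PR domain factor of the nociceptor lineage, had a lowest, median and highest level of 5.58, 6.18 and 6.89 in lumbar and 6.07, 6.66 and 6.995 in sacral DRG. The groups overlapped, and sacral DRG had more in all 10 donors. The difference was -0.49 (standard error 0.11, adjusted p = 0.0014), or 1.40-fold. Prdm12 shares 200 exon bases with Gm13425 on the opposite strand, and use of the strand in counting is not stated, so reads of the pair cannot be told apart there.

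Runx1, the Runt domain factor of nociceptors, had a lowest, median and highest level of 4.22, 4.63 and 5.06 in lumbar and 4.44, 5.07 and 5.26 in sacral DRG. It was higher in sacral DRG in 9 of 10 donors, with donor F2 as the exception. The difference was -0.38 (standard error 0.10, adjusted p = 0.0028), or 1.30-fold. Runx1 shares 106 exon bases with Gm16801 on the opposite strand. Isl1, the LIM homeodomain factor of sensory neurons, had a lowest, median and highest level of 2.77, 3.13 and 3.56 in lumbar and 3.16, 3.53 and 3.75 in sacral DRG. Sacral DRG had more in all 10 donors, and the difference was -0.34 (standard error 0.09, adjusted p = 0.0035), or 1.26-fold.

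Etv1 (Er81), an ETS factor of proprioceptors, had a lowest, median and highest level of 3.15, 3.49 and 4.12 in lumbar and 3.25, 3.77 and 4.37 in sacral DRG. It was higher in sacral DRG in 9 of 10 donors, and the difference of -0.23 (standard error 0.11) missed the threshold (adjusted p = 0.090). With the donor as a fixed block it passed (adjusted p = 0.020), as it did without donor F4 (-0.26, adjusted p = 0.039), the donor with more in lumbar DRG. Among male donors alone the difference was -0.39 (adjusted p = 0.016) and among female donors alone it did not pass, while the interaction with sex was 0.33 (standard error 0.21, adjusted p = 0.9996). Tlx3, a homeobox factor of excitatory somatosensory neurons, had a lowest, median and highest level of 0.11, 0.57 and 1.10 in lumbar and 0.28, 0.68 and 1.81 in sacral DRG, from 73 to 315 reads per library. The groups overlapped over most of their range, and the difference of -0.21 (standard error 0.15) did not pass (adjusted p = 0.26). With voom scaled to the library total, where the median of all genes was -0.43, both passed with more in sacral DRG, Etv1 at -0.55 (adjusted p = 0.00049) and Tlx3 at -0.53 (adjusted p = 0.011).

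Runx3 and Shox2 stayed below the filter, so they have no value in the fit across filtered genes. Runx3, the Runt domain factor of proprioceptors, had 9 to 168 reads in lumbar libraries, with a median of 52.5, and 5 to 106 reads in sacral libraries, with a median of 29.5. Its lowest, median and highest levels were -4.47, -2.19 and -0.11 in lumbar and -5.85, -3.21 and -1.67 in sacral DRG. The levels overlapped, and 8 of 10 donors had more in lumbar DRG, by 1.01 ± 1.06 on average (SD, n = 10 donors, exact sign-flip permutation test, two-sided unadjusted p = 0.020). In the limma fit without the filter the difference was 1.01 (standard error 0.46, adjusted p = 0.10), which misses the threshold. The ratio of Runx1 to Runx3 within a library was 2.63-fold higher in sacral DRG and was so in 9 of 10 donors (difference of log2 ratios -1.39 ± 1.24, SD, n = 10 donors, exact permutation p = 0.0098, 0.013 adjusted over 4 ratios). This shift was -2.11 ± 0.85 in male and -0.67 ± 1.19 in female donors (SD, n = 5 each), with an exact permutation p of 0.095 after adjustment for the difference between the sexes.

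Shox2, the homeobox factor of TrkB touch neurons, had 20 to 63 reads per lumbar and 6 to 73 per sacral library, with a median of 32.0 at each level. It was higher in lumbar DRG in 7 of 10 donors, by 0.69 ± 1.496 (SD, n = 10 donors, exact sign-flip permutation test, two-sided p = 0.18), so no difference was detectable at this depth. The mean difference was 1.56 in male and -0.18 in female donors, and the interaction with sex in the limma fit without the filter was -1.74 (standard error 0.77, adjusted p = 0.9998). A further gene model of Shox2 in the table (ENSMUSG00000093425) had equal reads in 18 of 20 libraries. Whether reads that overlap several genes were counted for each of them is not stated. Shox2 also shares 153 exon bases with Rsrc1 on the opposite strand, and if the reads of Rsrc1 were spread evenly over its exons, 10 to 22.6 of them per library would lie on these bases. The part of Rsrc1 in the Shox2 reads was not tested.

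The size of the level differences was read against the marker genes, since neuronal markers were higher in sacral and glial markers in lumbar DRG. When each library was centred on the 6 neuronal markers, the median of all genes moved from -0.11 to 0.41, 3.2% of genes passed with more in sacral and 57.7% with more in lumbar DRG. Pou4f3 (-1.02, standard error 0.13, adjusted p = 9.1e-06) and Pou4f1 (-0.18, adjusted p = 0.048) then still passed with more in sacral DRG. Etv1 passed in the other direction (0.29, adjusted p = 0.025), Pou4f2 lay at -0.03 (adjusted p = 0.81), and Isl1, Prdm12, Runx1 and Tlx3 lay between 0.03 and 0.31 without passing. Of the 6 neuronal markers used for centring, 1 itself passed with more in sacral and 1 with more in lumbar DRG. Small differences in this setting therefore depend on the choice of markers. With the mean of the glial markers as a covariate, 0.442% of genes passed with more in sacral and 0.00613% with more in lumbar DRG, and Pou4f3 was the only factor that passed (-1.52, standard error 0.21, adjusted p = 0.0021). Pou4f1 then lay at -0.36 (adjusted p = 0.45). With quantile normalization Pou4f1, Pou4f2 and Pou4f3 passed with more in sacral DRG, as did 21.1% of genes, and 18.8% passed with more in lumbar DRG. With voom and TMM scaling on worked-back reads 6 factors passed with more in sacral DRG, as did 22.9% of genes, and 20.5% passed with more in lumbar DRG. With voom scaled to the library total 8 of 8 factors passed with more in sacral DRG, as did 58.0% of genes, and 8.71% passed with more in lumbar DRG. In male donors alone 5 factors passed with more in sacral DRG, as did 18.6% of genes (10.4% in lumbar DRG), and Isl1 (adjusted p = 0.058) and Pou4f2 (adjusted p = 0.069) did not. In female donors alone 4 did, as did 16.0% of genes (7.34% in lumbar DRG), and Isl1 (adjusted p = 0.066) and Runx1 (adjusted p = 0.12) did not. A scaling that moves all genes of a library alike leaves the distance of a factor from the median of all genes almost as it is, so this distance was compared only where the setting can change it. For Pou4f3 it was -1.43 as deposited, -1.37 with quantile normalization and -1.50 with the glial covariate. For Pou4f1 it was -0.59, -0.46 and -0.34, for Pou4f2 -0.45, -0.41 and -0.13, and for Etv1 -0.12, -0.01 and 0.13. For Prdm12 it was -0.38, -0.20 and -0.093, for Runx1 -0.27, -0.14 and 0.070, for Isl1 -0.23, -0.13 and 0.016, and for Tlx3 -0.10, -0.20 and 0.26.

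**Figure D3:**
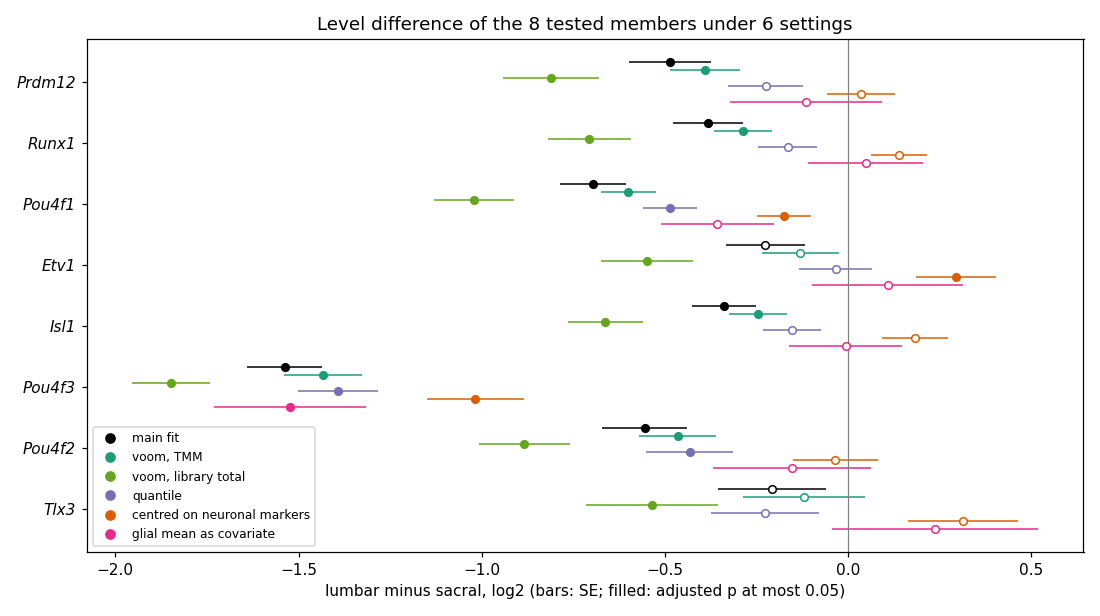
Lumbar minus sacral difference in log2 (horizontal axis) of the 8 tested factors under 6 settings, given by colour, with bars for the standard error and filled points where the adjusted p was at most 0.05. Pou4f3 lies left of 0 and is filled under all 6, whereas Isl1, Prdm12, Runx1, Etv1 and Tlx3 cross 0 with neuronal centring, and Runx1, Etv1 and Tlx3 also with the glial covariate.

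How the factors varied within groups was described by their deviations from the 4 group means. The deviations of Pou4f3 had a Pearson correlation of -0.01 with those of the glial marker mean and of -0.10 with those of the neuronal marker mean over the 20 libraries. For Runx1 these were -0.64 and 0.70, for Pou4f1 -0.57 and 0.71, and for Prdm12 -0.44 and 0.57. Among the factors, Pou4f1 and Runx1 deviated together most closely (0.87), followed by Prdm12 with Runx1 (0.77) and with Pou4f1 (0.65), while Pou4f1 and Pou4f3 were at -0.06. These are descriptions over libraries that share donors, depth and cell makeup.

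The genes most like each factor in these deviations were named among those with a value in every library and a mean above 1. Each was picked from the top of 10443 correlations (10444 for Tlx3) over 20 libraries, and this selection raises the values. None of these correlations was tested. Runx1 was most like Ids (0.95) and D15Ertd621e (0.95), and Prdm12 most like Fbxl16 (0.94) and Ebf1 (0.94). Pou4f1 was most like Rasgrp1 (0.89) and Cdc27 (0.89), Pou4f2 like Glt25d2 (0.78) and B3galt1 (0.78), and Pou4f3 like Dstyk (0.87) and Pde2a (0.75). Etv1 was most like Osmr (0.89) and Pnpla2 (0.85), Isl1 like Atad1 (0.85) and Nap1l5 (0.84), and Tlx3 like Lgmn (0.75) and the gene model ENSMUSG00000092745 (0.74).

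Among 19 partners and paralogs of the factors, 17 were tested, of which 8 passed with more in sacral and 1 with more in lumbar DRG, beside 30.3% and 15.3% of all genes, at a median of -0.10. Etv5, an ETS paralog of Etv1, was at 3.39 in lumbar and 3.95 in sacral DRG (-0.56, standard error 0.08, adjusted p = 3.6e-05). Drgx, a paired homeobox factor of nociceptive neurons, differed by -0.65 (standard error 0.10, adjusted p = 4.8e-05). Cbfb, the shared partner of the Runx proteins, differed by -0.47 (standard error 0.08, adjusted p = 6.0e-05). Isl2, the paralog of Isl1, and Klf7, a zinc finger factor of nociceptors, also passed with more in sacral DRG, whereas Pbx3 passed with more in lumbar DRG (0.61, adjusted p = 0.0011). With neuronal centring none of the 17 passed with more in sacral and 10 passed with more in lumbar DRG, beside 3.2% and 57.7% of all genes.

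Among 22 other transcription factors of sensory development, 14 were tested, of which 8 passed with more in sacral and 3 with more in lumbar DRG, beside 30.3% and 15.3% of all genes, at a median of -0.42. Maf, a factor of touch neurons, was at 2.66 in lumbar and 1.502 in sacral DRG and higher in lumbar DRG in 10 of 10 donors (1.16, standard error 0.15, adjusted p = 6.2e-06). Eya2, a transcriptional coactivator, differed by 2.76 (standard error 0.51, adjusted p = 0.00024). Cux2 (-1.33, standard error 0.19, adjusted p = 1.7e-05) and Sox11 (-1.26, standard error 0.21, adjusted p = 6.9e-05) were higher in sacral DRG in 10 of 10 donors. With neuronal centring 2 of the 14 passed with more in sacral and 5 with more in lumbar DRG, beside 3.2% and 57.7% of all genes.

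Of 13 receptors, enzymes and channels that mark the neuron types these factors act in, all were tested, and 8 passed with more in sacral and 2 with more in lumbar DRG, beside 30.3% and 15.3% of all genes, at a median of -0.64. Th, the enzyme of catecholamine synthesis and a marker of C-fibre touch neurons, was at 4.80 in lumbar and 6.19 in sacral DRG (-1.40, standard error 0.17, adjusted p = 5.4e-06). Ret, the receptor kinase for GDNF family ligands, differed by -0.96 (standard error 0.13, adjusted p = 1.3e-05), and Mrgprb4, a receptor of touch-sensitive C fibres, by -1.80 (standard error 0.45, adjusted p = 0.0028). Ntrk2, which encodes TrkB, was higher in lumbar DRG in 10 of 10 donors (0.77, standard error 0.13, adjusted p = 7.6e-05). Pvalb, a marker of proprioceptors, was higher in lumbar DRG in all 8 donors with a value at both levels (2.11, standard error 0.59, adjusted p = 0.0072). With neuronal centring 5 of the 13 passed with more in sacral and 3 with more in lumbar DRG, beside 3.2% and 57.7% of all genes.

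**Figure D4:**
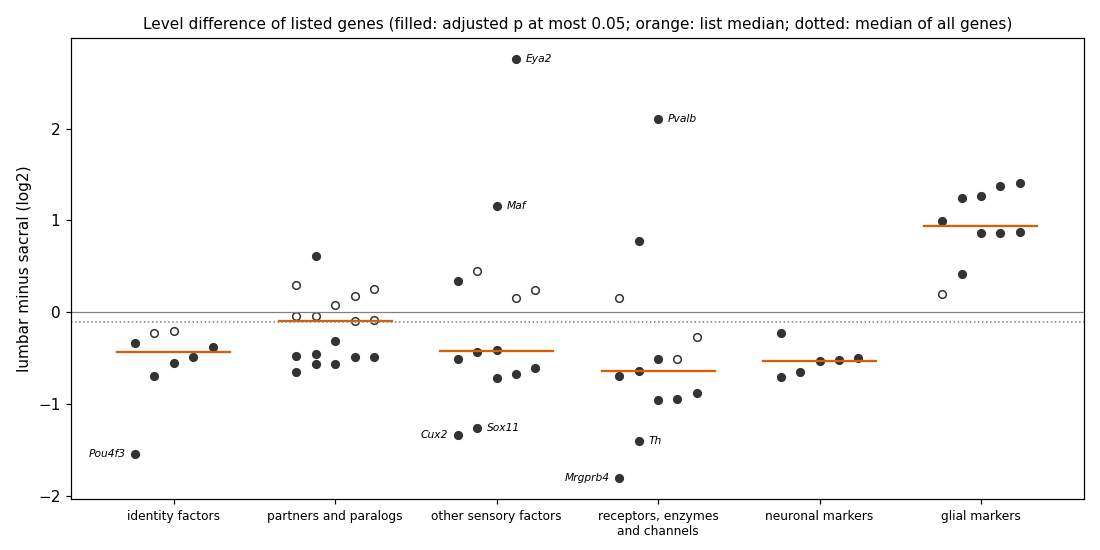
Lumbar minus sacral difference in log2 (vertical axis) of the tested genes of 6 lists, with filled points at an adjusted p of at most 0.05, an orange line at the median of each list and a dotted line at the median of all genes (-0.11). Genes beyond 1 in the first 4 lists are named. Pou4f3 lies below the range of the neuronal markers (-0.71 to -0.22). The other factors that passed (Pou4f1, Pou4f2, Prdm12, Runx1 and Isl1) lie within this range. The glial markers lie above 0, and neuronal centring raises the median of all genes to 0.41.

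Between the sexes no factor passed the test at either level. In lumbar DRG 0 of 8 passed, beside 0.0427% of 16386 genes, and in sacral DRG 0 of 8 passed, beside 0.0368% of 16321 genes. At an unadjusted p under 0.05, 4 of 8 factors were found in lumbar and 2 of 8 in sacral DRG, beside 11.4% and 8.09% of all genes. At the adjusted threshold voom on worked-back reads called none, with a lowest adjusted p under TMM scaling of 0.19 in lumbar and 0.35 in sacral DRG. Female minus male differences were above 0 for 7 of 8 factors in lumbar DRG (6 with neuronal centring) and for 8 of 8 in sacral DRG (7 with the glial covariate, without donor F2 or without donor M2). The median over all genes was -0.018 in lumbar and -0.015 in sacral DRG, and the share of genes above 0 was not counted. Several factors deviated together within groups, so these signs are not independent, and their counts were not tested. The lowest lumbar p was that of Pou4f1, at 4.51 in female and 4.05 in male donors (0.47, standard error 0.14, adjusted p = 0.29). The lowest sacral p was that of Tlx3, at 1.17 in female and 0.49 in male donors (0.69, standard error 0.23, adjusted p = 0.48). In the same lumbar libraries the neuronal marker mean was 6.93 ± 0.27 in female and 6.67 ± 0.27 in male donors (SD, n = 5 each), and the glial marker mean was 6.63 ± 0.31 and 6.95 ± 0.37. In sacral libraries the neuronal marker mean was 7.35 ± 0.10 in female and 7.29 ± 0.17 in male donors, and the glial marker mean was 5.67 ± 0.31 and 6.01 ± 0.39. With neuronal centring or with the glial covariate, 0 of 8 factors passed at either level. The interaction of sex and level passed for 0 of 8 factors, beside 0.0% of 16304 genes, with 0 factors and 668 genes at an unadjusted p under 0.05.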

How the data were processed

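RNA of sorted Trpv1 neurons was measured in 20 libraries, grouped by their labels. The authors aligned reads to mm9 with Subread, counted unique alignments per Ensembl gene and applied TMM and voom, and the values they deposited are log2 RPKM with no number of reads added. Total RNA was amplified before sequencing and carries no molecular identifiers, so depth describes counting error only. All libraries have a median of 0.93, a step the methods do not describe. Positions and symbols come from the NCBIM37 annotation. Reads were worked back from the steps of low values, of which 98.1% came out whole within 0.01 of a read.

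Differences were tested with limma 3.58.1 in R 4.3.3 on the log2 values of all 20 libraries, with 4 group means, the donor as a random block (correlation 0.17), moderation with a mean-variance trend and an adjusted p of 0.05 (Benjamini-Hochberg) as the threshold. Genes entered with a mean above -1 in at least 1 group, over at least 3 values. Libraries of a donor share animal numbers in the labels, and their deviations from group means correlated at 0.18 on average (0.04 to 0.30 over the 10 donors). Ratios and low genes used exact permutation tests in Python with numpy 2.4.6. The tests of the 4 ratios were not planned, and their adjustment covers these 4 alone. Named in the text are the 10 factors, in each further list the 3 genes with the lowest adjusted p and those that passed with a change above 1, and the 2 genes most like each factor. Isl2, Klf7, Pbx3 and single markers were named after their values were seen. The factors and lists were chosen with earlier results of these data known. Where a symbol had 2 identifiers (Runx2, Cux2), the lower was used.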

Additional observations from a re-analysis of the deposited data

Results flagged for a closer look

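In 5 of 40 groups of 5 libraries, a single library lay further from the others than Dixon's 95% critical value of 0.71 of the range allows, where chance flags about 1 in 20 groups. In sacral male libraries, Pou4f1 was at 4.55 in donor M2 against 4.93 to 5.05 in the others. In the same library, sacral M2, Prdm12 was at 6.07 against 6.54 to 6.66. Pou4f3 was at 3.61 in sacral DRG of donor M3 against 3.34 to 3.40 in the other males. Tlx3 was at 0.997 in lumbar DRG of donor M5 against 0.11 to 0.35 in the other males. Shox2 was at -4.25 in sacral DRG of donor F3 against -1.86 to -1.14 in the other females.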

How the results depend on the processing

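Over 22 alternative settings, Pou4f3 passed in all 22, with differences of -1.85 to -1.02, and Pou4f1 in 21, with the glial covariate as the exception. The number of factors with more in sacral DRG, 6 as reported, was 3 with quantile normalization, 2 with neuronal centring (and 1 with more in lumbar DRG, where none was reported) and 1 with the glial covariate. It was 8 with voom and the library total, 5 in male donors alone and 4 in female donors alone. It stayed at 6 to 7 when each donor was left out in turn. Of all genes, 73 passed with the glial covariate, 4644 in male donors alone and 3671 in female donors alone, against 7436, with fewer libraries in the fits of a single sex. The standard errors of the 8 tested factors were wider with the glial covariate than without it. Signs turned with neuronal centring for Isl1 (0.18), Prdm12 (0.035), Tlx3 (0.31), Runx1 (0.14) and Etv1 (0.29), and with the glial covariate for Tlx3 (0.24), Runx1 (0.048) and Etv1 (0.11). Beyond the construction of these settings, the cause was not tested. Without the replicate block 6 factors and 6577 genes passed, and with the replicate block as a fixed effect 7 factors (Etv1 in addition, -0.23) and 7171 genes passed, and the block changed no other call on a factor. Counts of factors between the sexes stayed at 0 under each setting that could be fitted. Leaving out each donor in turn, chosen after seeing the data, gave -0.94 to -0.75 for the log2 ratio of Pou4f3 to Pou4f1, -1.08 to -0.92 for Pou4f3 to Pou4f2, 0.070 to 0.23 for Pou4f2 to Pou4f1 (passing only without donor F2), -1.67 to -1.22 for Runx1 to Runx3, 0.89 to 1.25 for the donor difference of Runx3 and 0.37 to 0.92 for that of Shox2. Low reads limit Runx3, Shox2 and Tlx3.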

Other observations

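The antisense gene models beside Runx1 and Prdm12 also had values. Gm16801, opposite Runx1, was at 1.56 in lumbar and 2.12 in sacral DRG (-0.56, standard error 0.11, adjusted p = 0.00024 from limma), from 65 to 256 reads per library. Gm13425, opposite Prdm12, was at 2.86 and 3.12 (-0.25, standard error 0.15, adjusted p = 0.18 from limma). Gm13425 had 116 to 671 reads per library. Both share exon bases with their partner (106 for Gm16801 and 200 for Gm13425), so their reads cannot be told apart there. The partners had far more reads, 5891 to 19925 over 7798 exon bases for Runx1 and 4458 to 19542 over 2471 for Prdm12. How much of the level of either antisense model, and of its difference, comes from reads of the partner was not tested.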
